A study of Mus musculus with 2 samples.

Results

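The feedback genes of NF-κB signalling considered here were Nfkbia, Nfkbid, Nfkbiz, Nfkb1, Nfkb2, Rel, Relb, Tnfaip3 and Birc3, 9 of the 32285 genes in the count matrix. They were taken by name, with earlier results of these data known. Their levels were read in 10007 of the 16179 cell barcodes, those with at least 1000 genes, at most 5% mitochondrial UMIs (unique molecular identifiers, each a counted transcript) and 10 or more hashtag UMIs, of which 1 hashtag row held 80% or more. The study asked how Kidins220, an adaptor protein of the T cell receptor, acts in thymic iNKT cells, T cells with an invariant receptor for glycolipids on CD1d. Cells from Ctrl mice and T-KO mice, in 2 pools per genotype of 4 thymi each, all on the C57BL/6 background, were sorted as stage 0 (TCRβ+ CD1d tetramer+ CD24+ NK1.1-) or stage 3 (TCRβ+ CD1d tetramer+ NK1.1+ CD24- CD44+) cells. In T-KO mice, floxed Kidins220 (Kidins220 fl/fl) is deleted by Cre under the proximal Lck promoter, which is active early in T cell development. The study gives the genotype of Ctrl mice as Kidins220 +/fl or Kidins220 +/+ LckCre. The study gives mouse ages for its experiments in general and not for this one. The 8 sorted populations were marked with hashtag antibodies, pooled and read as 1 droplet library from the 5′ end of transcripts.

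The hashtags of the labels are numbered 1 to 8, the odd ones for stage 0 and the even ones for stage 3, whereas 99.9% of the hashtag UMIs lay on the rows of the matrix numbered 11 to 18. The labels and methods do not tie the rows 11 to 18 to these hashtags, so no comparison of Ctrl with T-KO was made and no row was called stage 0 or stage 3. Rows were treated as single values of 1 pooled sample, with no test between groups and no p-value, and intervals cover counting error only. Kidins220 itself was at 28.4, 35.2, 17.5 and 20.4 CPM (UMIs per 1000000 gene UMIs) in the even rows 12, 14, 16 and 18 and at 19.7, 21.03, 14.5 and 13.9 CPM in the odd rows 11, 13, 15 and 17, and no row was assigned from it. The 4 odd rows held 4249 cells of several kinds, which were split by the first match among at least 2 UMIs of Cd79a, 5 of Cst3, 1 of Rag1 and 2 of Ikzf2, with a rest. These classes are named here by their gate, and the 5758 cells of the 4 even rows were kept as they were.

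The classes differed in their markers, and the gating gene of each class is itself one of the markers counted for it. The Cd79a class (810 cells) had 7 of 7 B cell markers at 20 CPM or more, and the Cst3 class (972 cells) had 9 of 9 dendritic or myeloid markers. The Rag1 class (418 cells) had 8 of 9 markers of CD4 and CD8 double-positive thymocytes, led by Dntt at 779 CPM. The Ikzf2 class (1106 cells) had 8 of 10 markers of stage 0 iNKT cells or recently selected thymocytes, led by its gating gene Ikzf2. However, Trav11, the variable segment of the invariant receptor, was at 0 to 1.70 CPM there and Zbtb16, the lineage factor of iNKT cells, at 3.41 to 17.8 CPM, against 39.5 to 56.5 and 64.7 to 74.7 CPM in the even rows. The label iNKT cell was thus not borne out in the Ikzf2 class by its defining markers. The γδ T cell gene Trdc was at 90.5 to 144 CPM in that class and at 9.64 to 11.8 CPM in the even rows, but it was at 156 to 186 CPM in the Rag1 class and at 146 to 266 CPM in the rest, so it does not set the Ikzf2 class apart among the odd rows. The even rows had 9 of 9 markers of stage 3 iNKT1 cells, led by Nkg7 at 1448 to 1584 CPM. Nkg7, a granule protein of cytotoxic lymphocytes, was at 23.0 to 30.5 CPM in the Cd79a class, as a rough gauge of free RNA in the droplets.

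NF-κB proteins are dimers of the subunits RelA, c-Rel, RelB, p50 (from Nfkb1) and p52 (from Nfkb2), which IκB proteins hold in the cytoplasm or modulate in the nucleus until the IκB kinase is activated. In the canonical arm, antigen, toll-like or cytokine receptors cause IκBα to be degraded, whereas in the slower non-canonical arm p100 is processed to p52, the partner of RelB. Several genes of the pathway are themselves transcribed in response to NF-κB, among them inhibitors that end the signal, so their transcripts are often read as a trace of recent signalling. In the thymus, NF-κB takes part in selection and is needed for iNKT cell development.

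Promoter stretches are shown because several members hold the κB motif, the DNA element that NF-κB dimers bind, near their start. RefSeq promoter windows of the build GRCm38.p6, from 250 bases before to 50 bases after a transcript start, were found for 6 of the 9 genes. The motif was searched on both strands, with overlapping matches joined. It was found in 8.46% of all 32851 windows, in 7 of the 11 windows of the members and in 5 of these 6 genes, beside 9.55% of all 27025 genes in the table, and a gene with several windows has more chances to hold it. The window of Birc3 held no match. Capitals mark the match, and each stretch is written 5′ to 3′ on the strand of its gene.
Nfkbia: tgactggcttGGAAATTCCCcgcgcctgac
Nfkbid: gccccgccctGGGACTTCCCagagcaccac
Nfkb2: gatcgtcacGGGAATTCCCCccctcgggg
Rel: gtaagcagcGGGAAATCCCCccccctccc
Tnfaip3: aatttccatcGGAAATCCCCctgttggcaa

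The stretch of Nfkbia lies at chr12:55492657-55492686 on the minus strand, with 19 bases between the match and the transcript start. That of Nfkbid lies at chr7:30422170-30422199 on the plus strand, 216 bases before 1 of 3 transcript starts, inside the annotated gene (chr7:30421732-30428746), and the windows of the other starts held no match. That of Nfkb2 lies at chr19:46304689-46304717 on the plus strand, 28 bases before 1 of 3 transcript starts and inside the annotated gene (chr19:46304320-46312385), and the windows of the other starts held matches too. That of Rel lies at chr11:23771042-23771070 on the minus strand, 81 bases before the start. That of Tnfaip3 lies at chr10:19015403-19015432 on the minus strand, 2 bases before 1 of 2 transcript starts and inside the annotated gene, and the window of the other start held no match. A match is a description of the letters in the window and not a bound site.

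Nfkbia encodes IκBα, the inhibitor that is degraded and then made anew in canonical signalling (chr12:55489410-55492647, minus strand). Its level was 212, 217, 220.3 and 224 CPM in the Ikzf2 class of rows 11, 13, 15 and 17. It was 291, 283, 298 and 288 CPM in the even rows 12, 14, 16 and 18. Both sets of values were tight, and they did not overlap. The level was higher in the Cst3 class, at 302 to 406 CPM, and highest in the Cd79a class, at 419, 437, 488 and 627 CPM. The Rag1 class, at 79.4 to 131 CPM, and the rest of the odd rows, at 114 to 153 CPM, were lowest, and these overlapped each other. The order of the median levels was thus Rag1, rest, Ikzf2, even rows, Cst3 and Cd79a. With cells thinned to 2000 UMIs before gating, the Ikzf2 class (357 CPM) was above the even rows (309 CPM), and the Cst3 class (499 CPM) just above the Cd79a class (496 CPM). With at most 4000 genes per cell, the Cst3 class (463.8 CPM) was also just above the Cd79a class (460.4 CPM).

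Nfkbid and Nfkbiz encode the nuclear proteins IκBNS and IκBζ, which modulate target genes and do not retain dimers in the cytoplasm. Nfkbid was at 37.3, 32.1, 40.4 and 15.9 CPM in the Ikzf2 class, and at 38.5 to 47.6 CPM in the even rows. These values overlapped, with row 17 the lowest of its class. Nfkbiz was at 29.7 to 35.6 CPM in the Ikzf2 class, just below its 39.0 to 50.4 CPM in the even rows. The widest range was that of the Cd79a class, at 27.9, 40.5, 54.5 and 59.7 CPM. With cells thinned to 2000 UMIs before gating, the median of Nfkbiz was higher in the Ikzf2 class (56.3 CPM) than in the even rows (45.6 CPM). Both genes had their lowest median in the Rag1 class, with Nfkbid at 7.90 to 21.5 CPM and Nfkbiz at 4.51 to 7.58 CPM. For Nfkbid, the Cst3 class overlapped it, at 9.82 to 16.7 CPM. In the Cst3 class they were also low, with medians of 15.7 CPM for Nfkbid and 19.7 CPM for Nfkbiz.

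Nfkb1 encodes p105, the precursor of p50 (chr3:135584655-135691547, minus strand). Of the 6 groups, the Ikzf2 class had its highest median, with row values of 192, 170.4, 153 and 171 CPM. In the even rows it was at 95.3, 98.2, 111 and 109 CPM. The groups did not overlap, and the log2 ratio of the Ikzf2 class over the even rows was 0.67. The Cst3 class, at 133 to 163 CPM, overlapped the Ikzf2 class, and the Cd79a class, at 109 to 138 CPM, lay below it. The Rag1 class was at 43.0 to 56.9 CPM.

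Relb and Nfkb2, the genes of the non-canonical dimer, had another order. Relb was at 33.1, 41.4, 35.6 and 39.7 CPM in the Ikzf2 class and at 56.0, 55.7, 61.3 and 55.1 CPM in the even rows, without overlap. Its level in the Rag1 class was 2.84 to 4.61 CPM, in the Cst3 class 68.4 to 96.9 CPM, and in the Cd79a class 59.6 to 80.6 CPM. With cells thinned to 2000 UMIs before gating, the median of Relb was higher in the Ikzf2 class (67.6 CPM) than in the even rows (56.2 CPM). Nfkb2 was at 44.1, 35.8, 31.7 and 37.5 CPM in the Ikzf2 class and at 37.5, 36.9, 48.6 and 46.2 CPM in the even rows, so these overlapped. It was at 7.13 to 11.3 CPM in the Rag1 class and at 68.4 to 82.8 CPM in the Cst3 class and 66.6 to 103 CPM in the Cd79a class. Rel, which encodes c-Rel, was at 36.9 to 46.6 CPM in the Ikzf2 class and at 28.0 to 37.8 CPM in the even rows, overlapping. It was highest in the Cst3 class, at 58.5 to 91.1 CPM, and in the Cd79a class, at 44.2 to 94.2 CPM, and was at 3.79 to 13.8 CPM in the Rag1 class.

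Tnfaip3 encodes A20, a ubiquitin-editing enzyme that ends signalling to the IκB kinase (chr10:19000910-19015657, minus strand). It was at 71.2, 71.8, 51.2 and 68.7 CPM in the Ikzf2 class. In the even rows it was at 172, 186, 123 and 165 CPM. Every even row was above every row of the Ikzf2 class, with a log2 ratio of -1.16. The ratio was -0.30, with overlapping values, when cells were thinned to 2000 UMIs before gating. The even rows were also above the Cst3 class, at 46.3 to 74.7 CPM, and above the Cd79a class, at 45.1, 63.2, 53.4 and 119 CPM. The Rag1 class had the lowest median, 34.2 CPM, but with cells thinned to 2000 UMIs before gating its median was 100.4 CPM, above the rest (68.5 CPM), the Cd79a class (70.8 CPM) and the Cst3 class (83.4 CPM), with at most 4000 genes per cell it was 71.1 CPM, above the rest (61.2 CPM) and the Cd79a class (59.5 CPM), and with the mean of single-cell CPM, a setting added after seeing the data, it was 67.8 CPM, above the Cd79a class (63.998 CPM). Birc3 encodes cIAP2, a ubiquitin ligase of the tumour necrosis factor receptor complexes. It was at 14.8 to 22.9 CPM in the Ikzf2 class, at 24.97 to 30.1 CPM in the even rows, at 40.2 to 68.0 CPM in the Cst3 class and at 54.0 to 71.2 CPM in the Cd79a class.

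**Figure D1:**
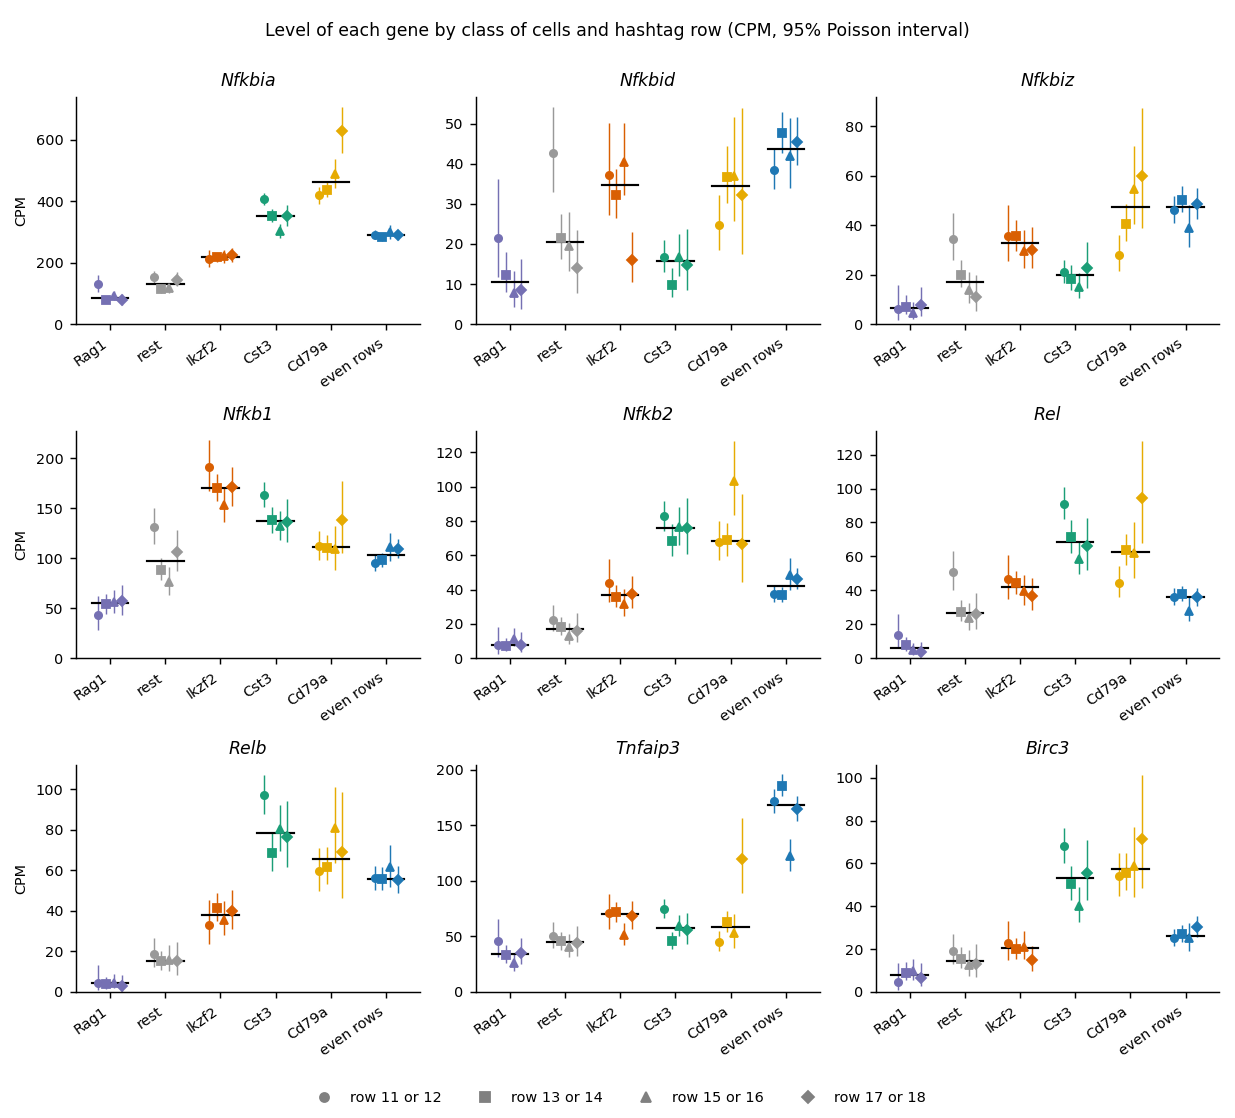
Level of the 9 genes (vertical axis, CPM from 0, each panel with its own scale) in the 5 classes of the odd rows and in the even rows. A point is 1 hashtag row with its exact Poisson 95% interval, and the black line is the median over 4 rows. Nfkb1 is highest in the Ikzf2 class, Tnfaip3 in the even rows, and Relb, Nfkb2 and Birc3 in the Cst3 and Cd79a classes, while the Rag1 class has the lowest median for each gene as plotted (for Tnfaip3 not after thinning, with at most 4000 genes per cell or with the mean of single-cell CPM).

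Across all 9 genes, the Ikzf2 class was higher than the even rows without overlap for Nfkb1, lower for Nfkbia, Nfkbiz, Relb, Tnfaip3 and Birc3, and overlapping for Nfkbid, Nfkb2 and Rel. Of the 7371 genes reaching 20 CPM in either group, 45.9% were higher in all row values and 22.8% lower. The members' median log2 ratio was -0.27 and that of all these genes 0.19. This result depended on the cells that entered the class. Cycling cells, with at least 3 UMIs of Mki67 and Top2a, were 30.1% of the cells of the Ikzf2 class but held 53.9% of its UMIs, with a median of 13477 UMIs per cell against 3400.5 in the even rows. They were low in the CPM of the members, and a sum over the class weights them by their UMIs. The part of this weighting in the result was not tested.

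Without the cycling cells, 773 cells of the Ikzf2 class remained, and most members changed their place relative to the even rows. Nfkbia was then at 325, 312, 326 and 325 CPM in rows 11, 13, 15 and 17, above the even rows, so its direction was reversed. Nfkb1 had a median of 236 CPM, and its log2 ratio over the even rows was 1.12. Nfkb2 (58.3 CPM) and Rel (56.0 CPM) were then also above the even rows without overlap. Relb, at 59.0 CPM, Nfkbiz, at 48.2 CPM, Nfkbid, at 46.2 CPM, and Birc3, at 25.1 CPM, overlapped the even rows. Tnfaip3 stayed below them, at 112, 105, 84.8 and 102 CPM, with a log2 ratio of -0.65. Thus 4 of the 9 members were higher and 1 was lower, beside 41.5% and 17.2% of 7381 genes, so these counts were near the shares of all genes. The members' median log2 ratio was 0.066 and that of all these genes 0.22.

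Over all settings that were run, only Nfkb1 (higher in the Ikzf2 class) and Tnfaip3 (lower) kept their direction. The log2 ratio ranged from 0.47 to 1.25 for Nfkb1 and from -1.43 to -0.30 for Tnfaip3. The other members reversed under at least 1 of them. When each cell was thinned to 2000 UMIs and gated again, for instance, 0 members were lower without overlap, although Tnfaip3 kept its sign. The share of all genes lower in that setting is not given here.

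**Figure D2:**
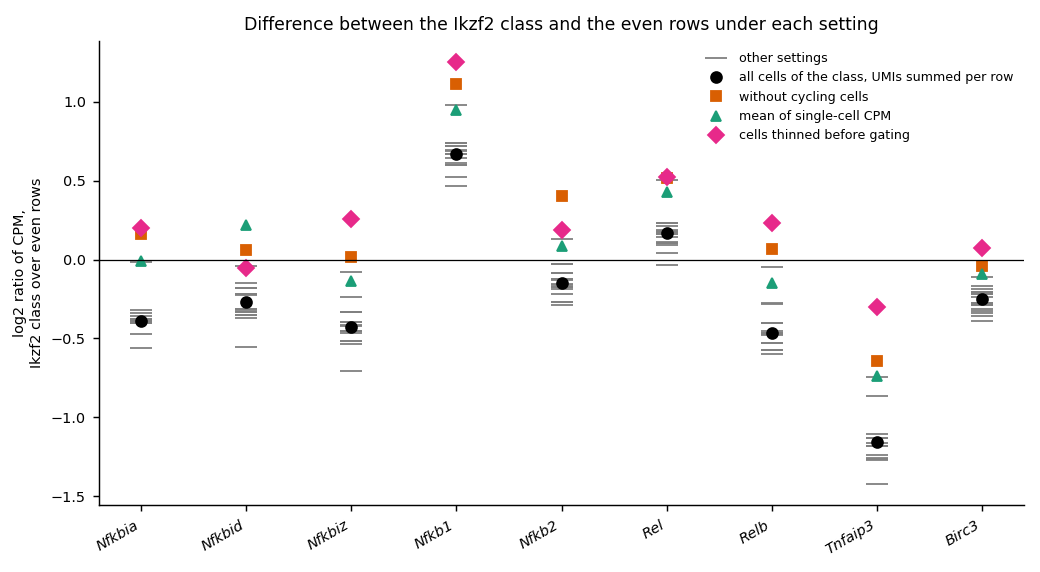
Log2 ratio of CPM, Ikzf2 class of the odd rows over the even rows (vertical axis), for each gene under each setting. Nfkb1 stays above 0 and Tnfaip3 below 0 for all marks, whereas each of the other genes has marks on both sides of 0.

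The share of cells with a UMI, with each cell thinned to 2000 UMIs, gives each cell the same weight. It left out 53 cells of the Ikzf2 class and 552 of the even rows with fewer UMIs. Nfkb1 was seen in 31.4% of Ikzf2-class cells (95% Clopper-Pearson interval 28.6 to 34.3) and in 17.4% of even-row cells (16.4 to 18.4). Tnfaip3 was seen in 15.6% (13.4 to 17.9) and 23.1% (21.9 to 24.2). Nfkbid was seen in 4.75% (3.54 to 6.21) and 7.91% (7.19 to 8.68). Nfkbia was seen in 36.5% (33.6 to 39.5) and 38.0% (36.7 to 39.3). These intervals pool the cells of 4 rows and do not measure the spread between rows, so no call between the groups is drawn from them. The row values of Nfkbid in CPM overlapped. Without thinning, the shares were 61.9% and 29.2% for Nfkb1, 33.5% and 37.2% for Tnfaip3, 13.6% and 13.5% for Nfkbid, and 63.2% and 51.5% for Nfkbia, at median depths of 5517.5 and 3400.5 UMIs. In the Rag1 class, where 8 of the 9 members had their lowest thinned share, Nfkb1 was seen in 14.1% (10.8 to 18.003), Nfkbia in 15.2% (11.8 to 19.1) and Relb in 1.29% (0.419 to 2.97) of cells. A thinned cell had UMIs of 1.28 members on average in the Ikzf2 class, 1.24 in the even rows, 1.48 in the Cd79a class, 1.49 in the Cst3 class and 0.522 in the Rag1 class.

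Rapid-response genes, which handling of cells is known to raise, also differed between the groups. A list of 10 such genes, among them Fos, Junb and Hspa1b, summed to 2134, 1801, 1384 and 1278 CPM in the Ikzf2 class of rows 11, 13, 15 and 17 and to 4547, 5524, 2277 and 3096 CPM in the even rows 12, 14, 16 and 18. In the even rows, all 10 were at 20 CPM or more, led by Junb or Hspa1b, and in the Ikzf2 class 9 were. Row 16 had the lowest sum of the even rows and also their lowest Tnfaip3, 123 CPM. In the Ikzf2 class, the lowest sum was in row 17 but the lowest Tnfaip3, 51.2 CPM, in row 15. The part of these genes in the levels of Tnfaip3 and the other members was not tested.

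Compared with the Rag1 class, the Ikzf2 class was higher without overlap for 8 of the 9 members, with Nfkbid overlapping. Of 7019 genes, 25.1% were higher and 17.7% lower by this rule. The log2 ratio was largest for Relb, at 1.75, and Rel, at 1.70, and smallest for Birc3, at 0.77. The members' median was 1.36, against 0.046 for all genes. All 9 members kept this direction in 6 other settings of filters, thinning, the total and the weight of cells. Over all rows the Rag1 class was deeper, with a median of 13561.5 UMIs per cell against 5517.5. In row 11 it was not, at 3684.5 against 4611. The rest of the odd rows was lower than the Ikzf2 class for Nfkbia, Nfkb1, Nfkb2, Relb and Tnfaip3 and higher for 0 members, beside 11.1% lower and 6.05% higher of 7027 genes. The ratio kept its sign in these 6 settings for 8 of the members, all but Birc3. The classes of the odd rows share their rows, so they were also compared inside each row. The Ikzf2 class was then above the Rag1 class in 4 of 4 rows for all 9 members, beside 32.9% of genes higher and 24.9% lower. The rest was below the Ikzf2 class in 4 of 4 rows for Nfkbiz and Birc3 as well, 7 members in all, beside 20.4% lower and 17% higher.

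The Cd79a class was higher than the Ikzf2 class for Nfkbia (log2 ratio 1.04), Nfkb2 (0.75), Relb (0.66) and Birc3 (1.14), and lower for Nfkb1 (-0.58). Of 7429 genes, 13.4% were higher and 54.9% lower. Relb lost its sign in 1 of the 6 settings, with cells thinned, where the ratio was -0.14. Without the cycling cells of the Ikzf2 class, its Relb values (47.0 to 72.4 CPM) overlapped those of the Cd79a class, and the other calls stood. The Cst3 class was higher for Nfkbia (0.66), Nfkb2 (0.88), Rel (0.60), Relb (0.89) and Birc3 (1.05), and lower for Nfkbiz (-0.53). Of 7424 genes, 17.4% were higher and 43.4% lower. All 9 members kept the sign of their ratio in the 6 settings, none of which removed the cycling cells by their gate. Without the cycling cells of the Ikzf2 class, Nfkbia, Rel (47.4 to 61.4 CPM) and Relb (47.0 to 72.4 CPM) overlapped the Cst3 class. The calls for Nfkb2, Birc3 and Nfkbiz stood. Nfkb1 (133 to 163 against 217 to 249 CPM) and Tnfaip3 (46.3 to 74.7 against 84.8 to 112 CPM) were then lower in the Cst3 class without overlap. The members' median log2 ratio to the whole Ikzf2 class was 0.49 for the Cd79a class, against -0.51 for all genes. For the Cst3 class it was 0.60, against -0.25. Inside rows, the Cd79a class was higher in 4 of 4 rows for Nfkbia, Nfkb2, Relb and Birc3 and lower for Nfkb1, beside 15.3% higher and 63% lower of all genes. The Cst3 class was higher for Nfkbia, Nfkb2, Rel, Relb and Birc3 and lower for Nfkbiz, Nfkbid and Nfkb1, beside 20.5% higher and 55.1% lower. Without the cycling cells, Relb was not higher in the Cd79a class of row 17 (68.9 against 72.4 CPM). Nor were Rel (58.5 against 61.4 CPM) and Nfkbia (302 against 326 CPM) in the Cst3 class of row 15. Nfkbid was not lower in the Cst3 class of row 17 (14.8 against 13.7 CPM).

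Within the Ikzf2 class, the cycling cells, the cells with at least 2 UMIs of Tnfrsf9 and the others were compared inside each row. Tnfrsf9 encodes 4-1BB, a costimulatory receptor raised on activated T cells that feeds into both arms of the pathway. In the 237 cells of the Tnfrsf9 gate, Relb was at 72.7, 90.7, 100.4 and 126 CPM in rows 11, 13, 15 and 17, against 34.7, 34.7, 34.1 and 43.9 CPM in the 536 other cells. The median difference on the log2 scale was 1.25. Nfkb2 was at 89.5, 78.6, 89.5 and 90.1 CPM against 45.4, 30.9, 34.1 and 47.7 CPM, a difference of 0.98. Both genes of the non-canonical dimer were thus higher in 4 of 4 rows. Nfkb1 was too, by 0.10, and the other 6 members were not ordered alike in all rows. Of 7247 genes, 12.9% were higher and 17.5% lower in 4 of 4 rows. The gating gene Tnfrsf9 is itself on the lists of pathway genes used below. Cells of the Tnfrsf9 gate were deeper, with a median of 5603 UMIs against 3894.5, and the part of depth in these levels was not tested. The sub-gates of the Tnfrsf9 cells hold 30 to 102 cells a row, and the counting intervals of single rows were wide, at 38.7 to 124 CPM for Relb in row 11.

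In the 333 cycling cells, 8 of the 9 members were lower than in the other Ikzf2-class cells in 4 of 4 rows, and Nfkbid was lower in 3 of 4. Nfkbia was at 112, 132, 138 and 139.5 CPM against 328, 282, 269 and 317 CPM. Tnfaip3 was at 35.1, 41.5, 25.1 and 40.6 CPM against 107, 135, 106 and 101 CPM. Of 7432 genes, 35.9% were lower and 24.7% higher by this rule. CPM is a share of the UMIs of a cell, and the cycling cells had a median of 13477 UMIs against 3894.5 in the others. Per cell, the UMIs of the members were not generally fewer: over all rows, 7 of the 9 had more UMIs per cell in the cycling cells, 4 of them in 4 of 4 rows. The same count over all genes was not made. As the cycling cells hold more UMIs in total, this count does not set the members apart from other genes. Nfkbia had 1.84 UMIs per cell in the cycling cells and 1.35 in the others, and Nfkb1 1.63 and 1.03. Tnfaip3, at 0.505 and 0.539, and Nfkbiz, at 0.243 and 0.244, had about as many in both. The part of the larger total in the lower CPM of the cycling cells was not tested.

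**Figure D3:**
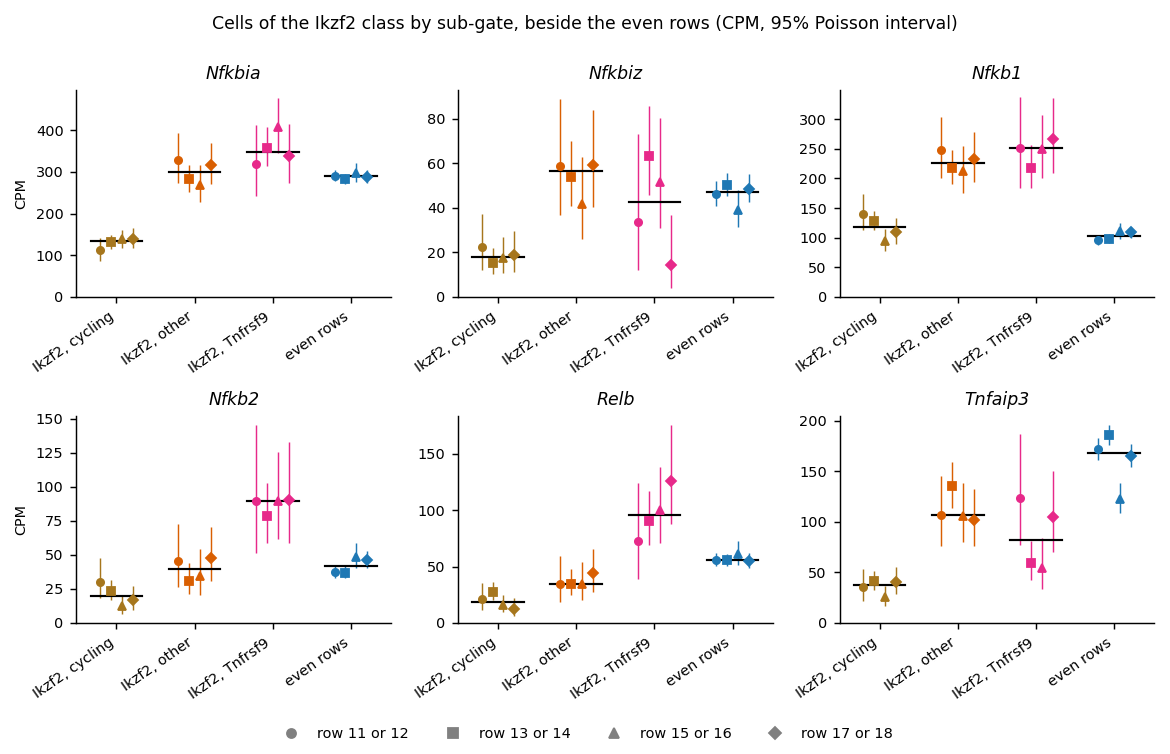
Level (CPM from 0) of 6 genes in the cells of the Ikzf2 class by sub-gate, beside the even rows. A point is 1 hashtag row with its exact Poisson 95% interval, and the black line is the median over 4 rows. Cycling cells have the lowest median for 5 of the genes, the even rows for Nfkb1, and Relb and Nfkb2 have their highest medians in the Tnfrsf9 gate.

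The even rows were split in the same way. Cells with at least 3 UMIs of Mcm3 and Mcm5, helicase genes of DNA replication, were lower than the ungated even-row cells in 4 of 4 rows for Nfkbia, Nfkbiz, Rel and Tnfaip3. Tnfaip3 had a median of 94.5 CPM in the 210 gated cells against 196 CPM, and Nfkbia of 186 against 296 CPM. The gated cells were deeper, with a median of 6250.5 UMIs per cell against 3235, and the part of depth in these levels was not tested. Of 6773 genes, 23.9% were lower and 19.5% higher. Cells with at least 4 UMIs of the chemokine gene Ccl5 were compared with cells that had Izumo1r, a folate receptor gene, and no Ccl5. Nfkbia (269 against 310.4 CPM), Nfkbid (32.0 against 44.0 CPM) and Nfkbiz (39.4 against 49.4 CPM) were lower in 4 of 4 rows, beside 15.6% lower and 9.02% higher of 6430 genes. In cells with at least 3 UMIs of Isg15, an interferon-induced gene, Nfkb2 was higher and Nfkbiz lower in 3 of the 3 rows with 20 such cells, beside 10.4% and 25.9% of 6649 genes. Nfkb2 was at 46.6, 111 and 78.4 CPM in rows 12, 14 and 18 of these cells, against 34.0, 37.8 and 49.96 CPM.

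The other genes of the pathway were taken from lists of 77 genes, members included. Of these, 58 reached 20 CPM in the Ikzf2 class or the even rows. In the whole Ikzf2 class 10 of the 58 were higher, 27 lower and 21 overlapping, with a median log2 ratio of -0.23, beside 45.9% higher and 22.8% lower of all genes. Without cycling cells, 18 of the 58 were higher, 19 lower and 21 overlapping, with a median of -0.039, beside 41.5% and 17.2% of all genes. The 19 lower genes were lower in the whole class too, and 9 of the 18 higher genes were higher there.

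Among the genes that activate the pathway downstream of the antigen receptor, Malt1 and Prkcq were lower in the Ikzf2 class with and without its cycling cells. Malt1, a protease and scaffold, had a median of 35.8 CPM against 147 CPM in the even rows. Prkcq, which encodes protein kinase C theta, was at 97.5 against 206 CPM. Bcl10, an adaptor that binds Malt1, and Prkcb overlapped, with medians of 83.2 against 81.9 CPM and 89.95 against 78.4 CPM. Of the subunits, Rela was lower in the Ikzf2 class, at 72.4 against 111 CPM. Of the inhibitors, Bcl3 was at 6.86 against 21.002 CPM, and without cycling cells it overlapped. Nfkbie, at 35.2 against 29.1 CPM, was higher with and without them, and Nfkbib overlapped, at 64.9 against 62.8 CPM.

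Of the 8 negative regulators at 20 CPM, Tnip1, a partner of A20, was higher in the Ikzf2 class (83.7 against 49.2 CPM, and 132 CPM without cycling cells). Cyld, a deubiquitinase, was lower (46.0 against 98.9 CPM), as was Tnfaip3. N4bp1 (26.5 against 22.4 CPM) and Itch (44.9 against 51.1 CPM) overlapped in the whole class, with N4bp1 higher without cycling cells, at 30.6 CPM. Tax1bp1 (196 against 185 CPM) and Rnf11 (27.5 against 36.8 CPM) were above and below the even rows there but overlapped without cycling cells. Of the TRAF adaptors, Traf4 (59.6 against 33.9 CPM) and Traf6 (51.6 against 37.4 CPM) were higher. Traf5 (15.8 against 45.1 CPM) and Traf1 (23.0 against 52.7 CPM) were lower. Traf3, at 23.6 against 30.1 CPM, was lower in the whole class alone, and Traf2, at 46.8 against 42.0 CPM, overlapped.

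Of the kinases, 5 of 7 overlapped in the whole class, among them Ikbkb (82.1 against 79.0 CPM), Chuk (31.6 against 27.5 CPM), Ikbke (28.7 against 35.3 CPM) and Tab2 (50.8 against 57.2 CPM). Without cycling cells, Ikbkb (115 CPM) and Ikbke (46.6 CPM) were higher. Map3k7, the kinase TAK1, was higher (39.1 against 25.9 CPM), and Tbk1 lower (27.6 against 34.1 CPM) in the whole class alone. Of the receptors, Tnfrsf9 (181 against 17.1 CPM) and Cd27 (286 against 166 CPM) were higher in the Ikzf2 class. Il18r1 (3.80 against 180.3 CPM), Tnfrsf25 (0.564 against 29.8 CPM) and Tnfrsf18 (60.5 against 175 CPM) were lower, and Cd28 (245 against 249 CPM) overlapped but was higher without cycling cells, at 329 CPM. Of the ligands, 4 of 5 were lower with and without cycling cells. Ltb, which encodes lymphotoxin beta, was at 161 against 882 CPM, Cd40lg at 11.96 against 128 CPM, Tnf at 3.49 against 35.9 CPM and Tnfsf14 at 8.72 against 47.1 CPM. Tnfsf8, the ligand of CD30, was higher (33.5 against 11.5 CPM). Of the other target genes, Bcl2a1b (13.3 against 195 CPM) and Bcl2a1d (7.84 against 99.4 CPM), survival genes of the Bcl2 family, and Icam1 (22.0 against 72.3 CPM), an adhesion molecule, were lower with and without them. Bcl2a1b and Bcl2a1d are near-identical copies whose reads may be split. Bcl2l1 (16.4 against 20.8 CPM), Ccl4 (11.8 against 21.7 CPM) and Gadd45b (26.5 against 16.04 CPM) overlapped in the whole class, and Gadd45b was higher without cycling cells, at 38.9 CPM.

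**Figure D4:**
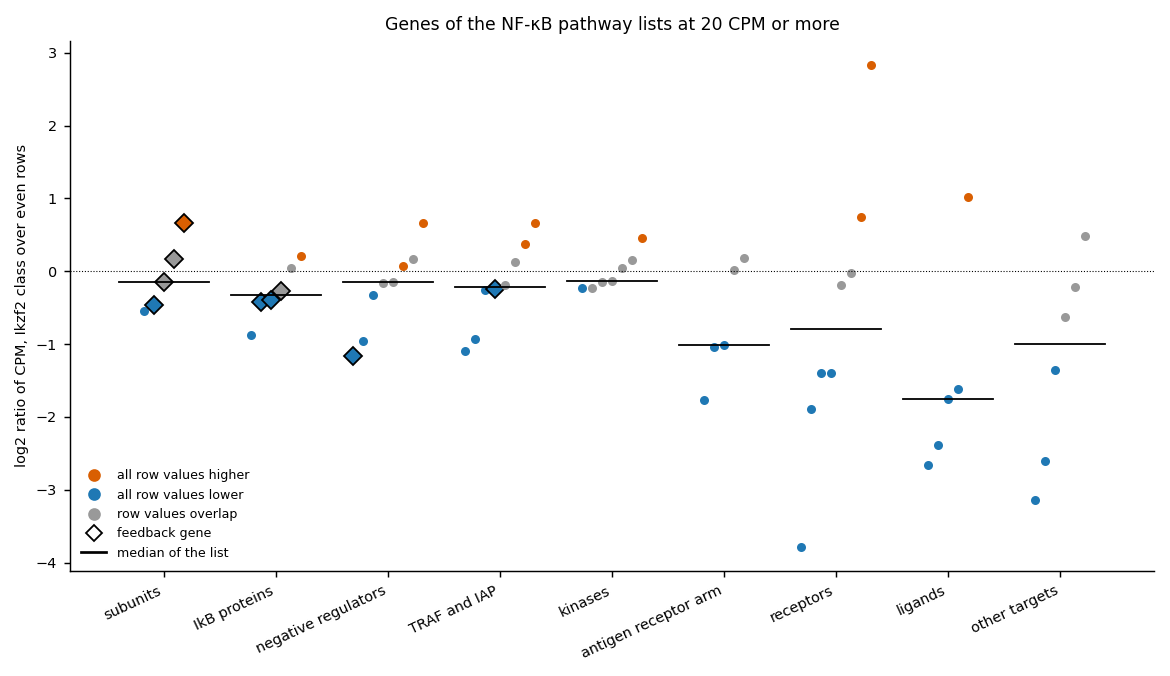
Log2 ratio of median CPM, Ikzf2 class over even rows (vertical axis), for the 58 genes of 9 pathway lists that reached 20 CPM. Diamonds are the feedback genes, colours tell whether the values of 4 rows and 4 rows overlapped, and lines are the medians of lists. Ligands and the antigen receptor arm have the lowest list medians, at -1.76 and -1.01, with other targets close, at -0.99. Without cycling cells (not plotted), other targets (-0.66) were below the antigen receptor arm (-0.58).

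The patterns of the members over the 24 groups of 1 row and 1 class were set side by side as log2(CPM + 10). Pearson's r between members ranged from 0.27 (Nfkbid with Birc3) to 0.97 (Nfkb2 with Relb). Nfkbia, Nfkb2, Relb and Birc3 had r from 0.90 to 0.97 with each other, whereas r of Nfkbid with the members was at most 0.84 and that of Tnfaip3 at most 0.77. Of 9125 genes, those most like each member were Snx20 for Nfkbia (0.97), Relb for Nfkb2 (0.97), Sat1 for Relb (0.97), mt-Co1 for Nfkbiz (0.96), Traf1 for Birc3 (0.96), Stk10 for Tnfaip3 (0.94), Glipr1 for Rel (0.93), Kmt2e for Nfkbid (0.89) and Endod1 for Nfkb1 (0.89). The 24 groups share 1 library, and 20 of them come from the same 4 rows, so r describes these groups only.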

How the data were processed

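Sorted thymocytes of 8 populations, each marked by a hashtag antibody, were read as 1 pooled library of transcripts with 1 library of hashtags. The deposited counts, UMIs per gene or hashtag and barcode, were made by the authors with Cell Ranger 6.0.0 and its mouse mm10 reference, without normalization. The sources used here do not give the release of that reference. The submitters' processing notes also name Seurat.

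From these counts, UMIs were summed per class and hashtag row and divided by the gene UMIs of the same cells (CPM). Groups with at least 20 cells were kept, and a log2 ratio is the difference of row medians of log2(CPM + 10). A group was called higher or lower than another when the values of 4 rows and 4 rows did not overlap, or, within rows, when all rows had 1 direction, among genes reaching 20 CPM. No test between groups was run, since the sources do not tie a row to a population. Intervals are exact Poisson or Clopper-Pearson intervals at 95%. Assigned cells had a median of 3828 UMIs, and 2140 of 12147 barcodes that passed the filters were not assigned, which removes doublets between rows but not within a row. Python 3.11.15 with NumPy 2.4.6, SciPy 1.17.1 and pandas 2.3.3 was used, and the calling and thinning steps were checked on simulated or thinned counts.

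The 9 genes, the gates and the lists were chosen with earlier results of these data known. Pathway genes were named by rule, the 3 highest and 3 lowest log2 ratios per list. The result for 1 gene of these lists is left out of the text. The removal of cycling cells, the comparison of odd-row classes inside rows, and levels as the mean of single-cell CPM, were added after the data were seen. Positions come from GENCODE M21 on GRCm38 and promoters from RefSeq on GRCm38.p6.

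Alternatives were looser cell filters (500 genes and 10% mitochondrial UMIs), at most 4000 genes, a hashtag share of 90% of at least 50 UMIs, ribosomal and Gm genes left out of the total, the mean of single-cell CPM, gates 1 UMI higher, the Ikzf2 gate first, thinning to 2000 UMIs, pseudocounts of 0 and 50 CPM, UMIs summed over rows, and leaving out each row.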

Additional observations from a re-analysis of the deposited data

Results flagged for a closer look

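Of 54 sets of 4 row values (9 genes in 6 groups), 6 held a row far from the other 3 by Dixon's 95% limit for 4 values, and chance flags about 1 in 20 sets. In the Cd79a class, Nfkb1 was at 138 CPM in row 17, from 58 cells, and Nfkb2 at 103 CPM in row 15, from 120 cells, both high. Nfkb2 was also high, at 11.3 CPM, in the Rag1 class of row 15. Rel was high, at 50.9 CPM, in the rest of row 11. Relb was high, at 61.3 CPM, in the even row 16. Tnfaip3 was low, at 51.2 CPM, in the Ikzf2 class of row 15, and without that row the log2 ratio of Tnfaip3 over the even rows was -1.13.

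The hashtag rows not used here held few UMIs, beside 34886859 on all hashtag rows. Row 1 held 12255 UMIs, row 4 11854, row 7 599, row 2 300, row 8 231 and row 6 161. Row 19 held 60, row 3 54, row 5 33, row 10 26, row 9 14 and row 20 12 UMIs. Each was above the 3 UMIs that a count of 0 allows.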

How the results depend on the processing

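Values here are log2 ratios of the Ikzf2 class over the even rows. They were -0.39 for Nfkbia, -0.27 for Nfkbid, -0.43 for Nfkbiz, 0.67 for Nfkb1, -0.15 for Nfkb2, 0.17 for Rel, -0.47 for Relb, -1.16 for Tnfaip3 and -0.25 for Birc3 as reported. With cells thinned to 2000 UMIs before gating, Nfkbia (0.20), Nfkbiz (0.25), Nfkb2 (0.19), Relb (0.23) and Birc3 (0.076) reversed, Nfkb1 was 1.25, Rel 0.53 and Tnfaip3 -0.30. Without the cycling cells, a choice made after seeing the data, Nfkbia (0.16), Nfkbid (0.058), Nfkbiz (0.019), Nfkb2 (0.40) and Relb (0.066) reversed, Nfkb1 was 1.12, Rel 0.52, Tnfaip3 -0.65 and Birc3 -0.041. With the mean of single-cell CPM, Nfkbid (0.22) and Nfkb2 (0.086) reversed, Nfkb1 was 0.95, Rel 0.43, Nfkbia -0.0080, Nfkbiz -0.14, Relb -0.15 and Tnfaip3 -0.74. With at most 4000 genes per cell, Nfkb2 (0.13) reversed, Nfkb1 was 0.98, Rel 0.51, Nfkbia -0.014, Nfkbiz -0.077, Relb -0.047 and Tnfaip3 -0.74. With the Ikzf2 gate first, Rel (-0.033) reversed, Nfkb1 was 0.47, Nfkbia -0.56 and Nfkbiz -0.71. Gates 1 UMI higher gave Nfkbia -0.32 and Relb -0.28, a pseudocount of 50 CPM gave Nfkbia -0.34, Nfkbiz -0.23 and Relb -0.27, and leaving ribosomal and Gm genes out of the total gave Nfkbia -0.47. Removing the cycling cells takes out cells in which 8 members were lower in CPM. For the other settings the cause was not tested. In all, 66 of the ratios moved by less than the spread between rows in these settings, 28 moved by more with the same sign and 14 reversed.

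Members lower without overlap numbered 5 as reported, 1 with at most 4000 genes, 1 with the mean of single cells, 1 without cycling cells, 0 after thinning, and 6 with the Ikzf2 gate first, with ribosomal and Gm genes left out, without row 12 or without row 15. Members higher numbered 1 as reported, 2 with at most 4000 genes, 2 with the stricter hashtag share, 2 with the mean of single cells, 2 after thinning and 4 without cycling cells. The share of all genes is given only for the reported setting and without cycling cells. For the other settings, these counts cannot be told from a shift of all genes. Leaving out 1 row kept the direction of all 9 ratios, which then ranged from -1.18 to -1.13 for Tnfaip3, 0.60 to 0.74 for Nfkb1 and -0.27 to -0.027 for Nfkb2. The members higher ranged from 1 to 2, with 2 without row 14 and 2 without row 17. No paired analysis was possible because no source used here ties a row to a pool of thymi, although stage 0 and stage 3 cells were sorted from the same pools. Classes of the odd rows share rows, and comparing them inside each row raised the members lower in the rest from 5 to 7 and those lower in the Cst3 class from 1 to 3. The shares of all genes lower rose too, from 11.1% to 20.4% and from 43.4% to 55.1%.

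Depth limited the low genes in small groups: Relb rested on 3 to 8 UMIs a row in the Rag1 class, and Birc3 on 3 to 19. Free RNA was not removed.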
